A study of Mus musculus with 2 samples.

Results

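The MHC class II genes and their transactivator Ciita were followed in tumors of the mouse colon carcinoma line MC38, with and without MSA-2, an agonist of the innate immune sensor STING. The group was defined by symbol alone and holds 10 genes, all 10 of them found among the 32285 features of the count tables: H2-Aa, H2-Ab1, H2-Eb1, Cd74, H2-DMa, H2-DMb1, H2-DMb2, H2-Oa, H2-Ob and Ciita. The rule uses no measured value, although the genes were picked with earlier results of these data known.

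MHC class II molecules sit on the surface of dendritic cells, macrophages and B cells and present peptides from engulfed proteins to CD4+ T cells. H2-Aa and H2-Ab1 encode the chains of I-A, H2-Eb1 encodes the beta chain of I-E, and Cd74 is the invariant chain that guides newly made class II molecules to the endosome. There H2-DM (H2-DMa with an H2-DMb chain) exchanges the Cd74 remnant for peptide, and H2-DO (H2-Oa with H2-Ob) restrains H2-DM. Ciita is a coactivator that binds no DNA itself and is recruited to the X and Y boxes of class II promoters by RFX, CREB and NF-Y, and interferon-gamma is its best known inducer.

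In the GRCm38 build, 8 of the 10 genes lie in the class II region of chromosome 17. H2-Oa starts at chr17:34092340 and H2-Eb1 ends at chr17:34316674, with H2-DMa, H2-DMb2, H2-DMb1, H2-Ob, H2-Ab1 and H2-Aa between them. H2-Aa is on the minus strand and the other 7 are on the plus strand. Cd74 lies outside this region, and Ciita lies at chr16:10480059-10528418. The transcripts of H2-DMb1 and H2-DMb2 share 517 words of 31 bases, which is 31.4% of those of H2-DMb1 and 29.7% of those of H2-DMb2, so the split of reads between this pair is uncertain. H2-DMa overlaps Brd2, H2-Oa overlaps BC051537 and Ciita overlaps Dexi, in each case on the opposite strand. H2-DMa also overlaps the transcript CR974462.3, and Cd74 the miRNA gene Mir5107, on their own strand.

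The promoter stretches of H2-Aa, H2-Eb1, H2-DMb2 and H2-Ob are shown because genes of all 3 structural groups (classical chain, H2-DM, H2-DO) were lower together in the comparison below. Stretches were printed only where they held the Y box word marked below and overlapped no annotated exon, which left out H2-DMa, H2-DMb1 and H2-Oa. RefSeq promoter windows (GRCm38.p6, 250 bases before to 50 after the start) were at hand for 7 of the 10 genes, which leaves H2-Ab1, Cd74 and Ciita named only. Capitals mark TGATTGG, the core of the Y box, and AACNNATGA, a stretch of the X box, both of them searched on both strands and chosen after the sequences were seen.
H2-Aa, minus strand, chr17:34287859-34287923: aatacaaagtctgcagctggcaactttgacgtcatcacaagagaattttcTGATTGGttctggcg
H2-Eb1, plus strand, chr17:34305756-34305820: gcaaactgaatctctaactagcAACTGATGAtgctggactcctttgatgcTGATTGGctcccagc
H2-DMb2, plus strand, chr17:34145107-34145171: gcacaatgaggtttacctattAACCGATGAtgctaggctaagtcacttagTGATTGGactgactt
H2-Ob, plus strand, chr17:34238796-34238860: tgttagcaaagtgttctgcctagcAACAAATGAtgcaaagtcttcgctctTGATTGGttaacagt
These 7 genes had 8 windows, as H2-DMa had 2. TGATTGG was present in 6 of the 8 windows and in 7.23% of all 32851 mouse promoter windows of this length. AACNNATGA was present in 4 of the 8 (H2-Eb1, H2-DMb1, H2-DMb2, H2-Ob) and in 2.49% of all windows. Both words on 1 strand, 15 to 50 bases apart, were found in 8 windows in all (0.0244%), and 4 of these 8 belong to the genes described here. The first bases of the words were 28 apart in H2-Eb1, 29 in H2-DMb1, 29 in H2-DMb2 and 26 in H2-Ob. Neither window of H2-DMa held either word, which says only that these letters are not in those windows. A match of letters is a description and no measure of binding.

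Tumors of MC38 cells were grown under the skin of C57BL/6 mice of 6 to 8 weeks, and received 3 intratumoral injections, 1 every 3 days with the last on day 6. They were collected on day 7. One library was made from untreated control tumors and 1 from MSA-2-treated tumors, each from 3 mice pooled, with the 10x Chromium 3′ v3.1 chemistry. The control is labelled untreated in one place and described as vehicle (saline with 10% DMSO) in another, so both groups may share the injections. The gate of the cell sort before loading is not given in the sources used here, and all tumors derive from 1 cell line. With 1 library per condition there was no replicate check and no test. The differences below compare these 2 libraries, and their intervals are exact 95% intervals that cover counting error only.

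After filters, 13334 untreated and 13393 MSA-2 cells held 183355500 and 191888910 unique molecular identifiers (UMIs, 1 per captured RNA molecule), with medians of 8298.5 and 9271 per cell. Of their barcodes, 39 were found in both libraries. The cells were clustered without any class II gene and named from marker genes. The myeloid-like cells, in which macrophage-, monocyte- and dendritic-like cells are counted and neutrophils are not, numbered 4202 untreated and 1959 after MSA-2. Within them, macrophage-like cells with the complement genes C1qa, C1qb and C1qc and no other named state numbered 2406 and 722, and Ly6c2+ monocyte-like cells 854 and 697. Type 2 conventional dendritic (cDC2)-like cells numbered 214 and 33, and neutrophil-like cells 47 and 2645. The largest class, 6592 and 7035 cells, is called tumor-like here, on Gng11 (1315 and 2075 CPM, a gene's UMIs scaled to a common class total), Ccn1, Anxa1 and Anxa3. Of these, Gng11 (308 and 791 CPM in fibroblast-like cells) and Anxa1 set it apart from fibroblast-like cells in both libraries, while Ccn1 (681 and 323 CPM here, 808 and 329 CPM there) did not, and Anxa3 (275 and 277 CPM untreated) did not in the untreated one. Its keratin markers were near 0 (23 and 42 UMIs of Krt8, 1 and 2 of Krt18), so no epithelial character is claimed for it. The markers of the C1q and resident macrophage-like, cDC2-, mregDC-, endothelial-, neutrophil- and NK/T-like cells were all higher there than in the other cells of their library, and those of the Ly6c2 monocyte-like cells in 7 of 8 cases untreated and 8 of 8 after MSA-2. No cluster of B cells was found.

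Class II RNA lay mostly in myeloid-like cells. Of all UMIs of the 4 classical genes (H2-Aa, H2-Ab1, H2-Eb1 and Cd74, the last counted with the chains here), 87.3% of those in the untreated library and 77.9% of those in the MSA-2 library came from them. Summed over all cells, the classical genes were 25.5-fold lower after MSA-2. Of the untreated UMIs of the H2-DO genes, 54.5% came from dendritic-like cells and 38.5% from cDC2-like cells alone, and of those of H2-DMb2 49.7% came from dendritic-like cells. After MSA-2, 21.2% of the few H2-DO UMIs came from dendritic-like and 40.9% from tumor-like cells. Of the untreated Ciita UMIs, 53.6% came from macrophage-like and 20.9% from dendritic-like cells, and after MSA-2 35.1% came from the latter.

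In the myeloid-like cells, all 10 genes were more than 2-fold lower after MSA-2, while 9.84% of the 15217 genes with at least 10 UMIs there were lower by as much. The median log2 ratio (MSA-2 over untreated) was -3.38 over the 10 genes and -0.17 over all genes, and values below carry that small shift. H2-Eb1 went from 136183 to 4302 UMIs, or from 5505 to 471 CPM, a log2 ratio of -3.55 (-3.59 to -3.50). H2-Aa went from 4001 to 383 CPM (-3.38, -3.43 to -3.33) and H2-Ab1 from 4378 to 427 CPM (-3.36). Cd74 went from 9010 to 991 CPM, a log2 ratio of -3.19 (-3.22 to -3.15). The classical sum was 10.1-fold lower (-3.33, -3.35 to -3.31). The intervals of H2-Eb1 and Cd74 did not overlap, so in this pair of libraries H2-Eb1 RNA was lower by more than Cd74 RNA.

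The H2-DM genes, whose products load the peptide, were lower by less, with a sum 5.91-fold lower (-2.56, -2.65 to -2.48). H2-DMa went from 365 to 77.9 CPM (-2.23, -2.34 to -2.12), the ratio nearest to 0 of the 10 genes in myeloid-like cells. H2-DMb1 went from 438 to 60.5 CPM (-2.86). H2-DMb2, with 630 and 16 UMIs, had a ratio of -3.86 (-4.68 to -3.15), under the limit on its reads named above. With the mix of classes held fixed, H2-DMb2 was at -2.31 or -2.80. H2-Oa went from 475 to 17 UMIs (-3.37, and -1.59 or -1.98 with the mix of classes held fixed) and H2-Ob from 237 to 8 (-3.45, and -2.58 or -2.36). Ciita went from 747 to 25 UMIs, 30.2 to 2.74 CPM, a ratio of -3.46 (-4.10 to -2.89). The interval of Ciita held the ratio of the classical sum and lay wholly below that of the H2-DM sum. With the mix of myeloid classes held at that of the untreated library, Ciita was at -1.71 and the H2-DM sum at -1.87. These fixed-mix values carry no interval, so no order is read from them.

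The size of the difference depended on the class of cell. Among 7 myeloid classes, the order of the untreated classical level in CPM was cDC2-like (39853), cDC1-like (29746), C1q macrophage-like (24194), Ly6c2 monocyte-like (21376), Ccr7+ mature dendritic (mregDC)-like (17825), cycling macrophage-like (17232) and resident macrophage-like (6132). These are sums of 1 library each, so the spread between tumors behind that order is unknown. After MSA-2 the Ly6c2 monocyte-like cells were lowest of these 7 classes, at 180 CPM, and the cDC2-like cells, 33 of them, were still highest.

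**Figure D1:**
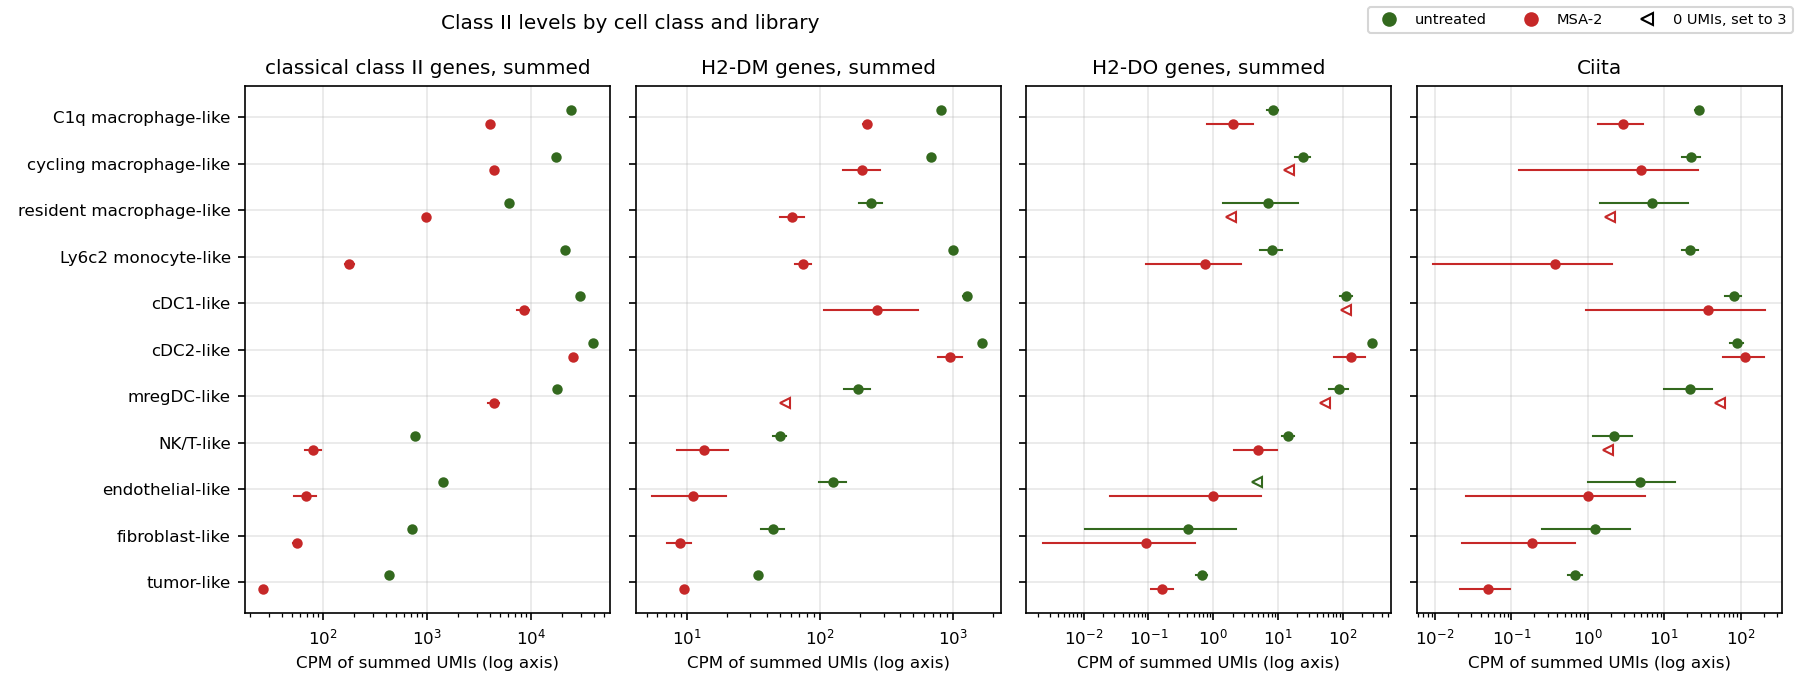
CPM of the classical sum, the H2-DM sum, the H2-DO sum and Ciita in 11 cell classes of the untreated and the MSA-2 library, on a log axis. Points are sums over the cells of a class with exact 95% Poisson intervals, and open triangles mark the floor of 3 counts where no UMI was counted. The Ly6c2 monocyte-like cells drop from 21376 to 180 CPM in the classical sum, and the cDC2-like cells from 39853 to 25149 CPM.

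In the C1q macrophage-like cells, all 10 genes were over 2-fold lower, against 9.19% of 13717 genes there. The classical sum went from 24194 to 3994 CPM (-2.60, -2.62 to -2.57). This class pools 3 sub-clusters whose ratios differed by more than their counting intervals. Sub-cluster 0, led by Acsl1, Negr1 and Hspa1a, held 1481 and 393 cells and had -2.16 (-2.18 to -2.13). Sub-cluster 5, led by Slc7a2, Atp2b4 and Nrg1, held 456 and 223 cells and had -3.85 (-3.91 to -3.78), and sub-cluster 7, led by Syngr1, Fcrls and Zdhhc14, held 469 and 106 cells and had -3.23 (-3.32 to -3.14). Over the whole class, H2-DMa went from 5123 to 437 UMIs, 2.82-fold lower, the least among the genes with over 50 UMIs (log2 interval -1.64 to -1.35), and H2-DMb1 had -2.16 (-2.32 to -2.00). H2-Oa, with 40 and 4 UMIs, had -1.27 (-3.21 to 0.20), an interval that includes 0. H2-Ob, the other chain of H2-DO, went from 81 to 3 UMIs (-2.70, -5.01 to -1.10), and the H2-DO sum had -2.06 (-3.40 to -0.97). The H2-DM sum had -1.83 (-1.93 to -1.72), above the interval of the classical sum and within that of the H2-DO sum. Ciita, the coactivator, went from 411 to 10 UMIs, 28.3 to 2.86 CPM (-3.31, -4.38 to -2.41). The resident macrophage-like cells had the lowest untreated level of these states and went from 6132 to 983 CPM (-2.64). Cycling macrophage-like cells, only 25 of them after MSA-2, went from 17232 to 4424 CPM (-1.96).

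Of the 7 myeloid classes, the largest difference was in the Ly6c2 monocyte-like cells, which are the inflammatory monocytes that enter tissue from blood. H2-Eb1 went from 16663 to 48 UMIs, 266-fold lower (-8.05, -8.49 to -7.65). H2-Aa went from 13166 to 55 UMIs (-7.52) and H2-Ab1 from 14830 to 78 (-7.19), while Cd74 went from 29628 to 298, 76.2-fold lower (-6.25, -6.42 to -6.09). Of the 10 genes 9 had at least 10 UMIs here and all 9 were over 2-fold lower, against 13.9% of 11772 genes and a median over all genes of -0.23. H2-DMb2 went from 43 to 0 UMIs and H2-Oa from 21 to 0, at least 11-fold and at least 5.36-fold lower with the count of 0 set to a floor of 3 counts. Ciita went from 76 UMIs to 1, a ratio of -5.86 with a wide interval (-11.19 to -3.34). Among the 9 genes H2-DMa had the ratio nearest to 0, with 1475 and 133 UMIs (-3.09). All 4 classical genes therefore had counts of under 300 after MSA-2 in 697 cells.

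Different sub-clusters held most of these cells in each library, so the ratio was also read within them. Sub-cluster 1, led by Ly6c2, Chil3 and Ly6i, held 798 untreated and 121 MSA-2 cells, and its classical sum went from 21445 to 180 CPM (-6.89). Sub-cluster 6, led by Ifna2, Vcan and Il6, held 56 and 576 cells and went from 20653 to 180 CPM (-6.84). The size of the ratio for the whole class was sensitive to how the cells were filtered and clustered, from -5.56 with no cell filter to -6.89 as reported. After MSA-2 the classical sum was 70.7 CPM in neutrophil-like and 80.5 CPM in NK/T-like cells, beside 180 CPM in the Ly6c2 monocyte-like cells, and the part of free RNA in the last was not tested.

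The difference was smallest in the cDC2-like cells among the 7 myeloid classes. Their classical sum went from 39853 to 25149 CPM (-0.66, -0.72 to -0.61), and the single classical genes lay between -0.83 (H2-Ab1) and -0.58 (Cd74). Only 2 of the 10 genes were over 2-fold lower, H2-DMb2 with 283 and 5 UMIs (-2.28, -3.91 to -1.04) and H2-Ob (-1.62, -4.70 to 0.28), a share close to the 25.6% of 8325 genes that were as low in these cells. Ciita had 109 and 12 UMIs, 88.9 and 114 CPM, a ratio of 0.36 (-0.63 to 1.22) that includes 0. With 33 cells in the MSA-2 library, these are small counts. Some markers of the class were lower after MSA-2, with Mgl2 at 686 and 2 UMIs (559 and 19.0 CPM), Cd209a at 91 and 1 (74.2 and 9.52 CPM), and Tnip3 at 336 and 8 (274 and 76.1 CPM), while Kmo had 54 and 5 (44.0 and 47.6 CPM). The cells compared may therefore differ in kind. In the cDC1-like cells the classical sum went from 29746 to 8491 CPM, on 6 cells after MSA-2 with 2 of 8 markers, Cadm1 and Itgae, at 0. Of these 6 cells, 2 held 26858 CPM and the other 4 held 55.3 CPM. In the mregDC-like cells, 14 after MSA-2, the classical sum went from 17825 to 4386 CPM (-2.02). The RNAs of the I-A chains were unequal in these cells, with -3.54 for H2-Ab1 and -1.51 for H2-Aa. The H2-DM UMIs of the mregDC-like cells went from 78 to 0, at least 3.53-fold lower against the same floor.

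A per-cell view, with each cell thinned to 1500 UMIs so that depth was equal, showed whether a class was lower in most cells. The median C1q macrophage-like cell went from 33 classical UMIs to 1, and cells with none went from 2.25% to 41.4%. Of these cells, 1575 of 2401 (65.6%) untreated and 65 of 703 (9.25%) MSA-2 cells had more than 20. The median Ly6c2 monocyte-like cell went from 27 to 0, with 5.51% and 85.8% at 0, on 835 of 854 and 668 of 697 cells that were deep enough. Without thinning, 97.9% and 27.4% of these cells had a classical UMI. The median cDC2-like cell went from 59 to 36.5, with 0% and 7.69% at 0, on 207 of 214 and 26 of 33 cells. Most C1q and Ly6c2 cells of the MSA-2 library therefore had a low count, and a minority of the C1q cells still had over 20. In NK/T-like cells, which in mice largely lack these genes, 41.9% and 90.4% were at 0, and whether the UMIs of the other cells came from free RNA was not tested.

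**Figure D2:**
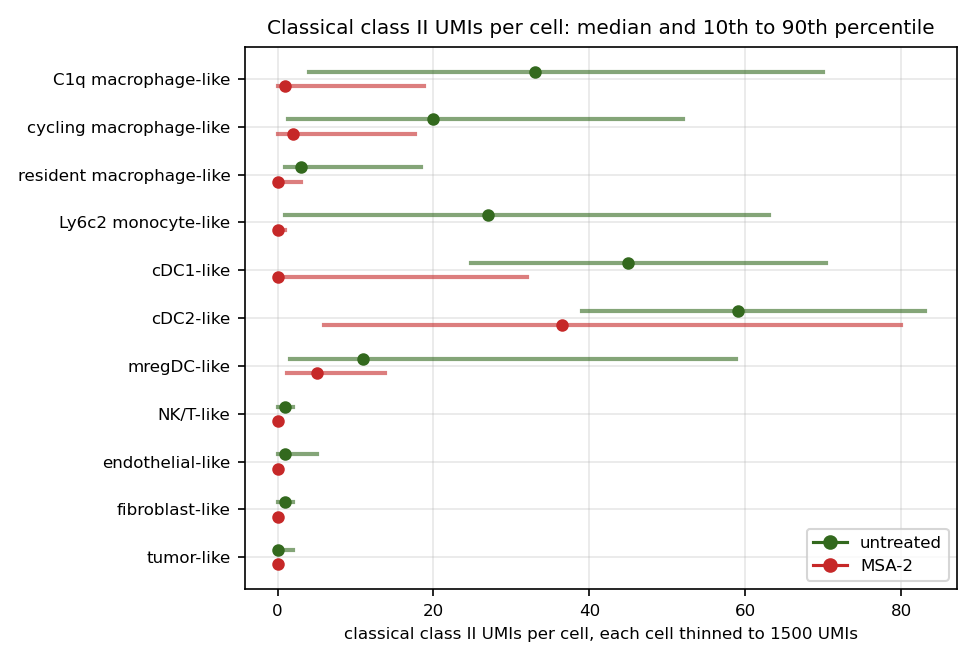
Classical class II UMIs per cell after thinning every cell to 1500 UMIs, by cell class and library. Points are medians over cells and lines span the 10th to the 90th percentile. The C1q macrophage-like median is 33 in untreated and 1 in MSA-2 tumors, and the cDC2-like medians are 59 and 36.5.

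The mix of myeloid classes differed between the libraries too, so the sum was recomputed with 1 mix held fixed over 9 classes. The observed classical ratio was -3.33. With the class levels of each library set in the untreated mix it was -2.34, and in the MSA-2 mix -3.03. For the H2-DM sum these were -2.56, -1.87 and -2.33, and for Ciita -3.46, -1.71 and -2.96. For the H2-DO sum they were -3.39, -1.85 and -2.11. These values carry no interval. In the untreated mix Ciita came out lower by the least of these 4. After MSA-2, its cDC2-like level rests on 12 UMIs in 33 cells and its cDC1-like level on 1 UMI in 6 cells. No order is therefore read from these values. In the MSA-2 mix over 9 classes, Ciita lay between the H2-DM and the classical sum. With that mix held over 12 sub-clusters, Ciita was at -3.325, below the classical sum at -3.040. All 4 were lower at either fixed mix, by less than as observed.

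Relative to the classical genes, H2-DM RNA made up more of what was left in C1q macrophage-, resident macrophage- and Ly6c2 monocyte-like cells. Per 1000 classical UMIs, myeloid-like cells held 36.2 H2-DM UMIs untreated and 61.7 after MSA-2, a log2 change of 0.77 (0.69 to 0.85). The C1q macrophage-like cells went from 33.3 to 56.7 (0.77) and the Ly6c2 monocyte-like cells from 46.2 to 415 (3.17, 2.96 to 3.38). In resident macrophage-like cells it was 39.3 and 62.7 (0.67, 0.26 to 1.09). In cDC2-like cells it was 41.1 and 37.8 (-0.12, -0.42 to 0.17), an interval that includes 0. The same held for cDC1-like cells, at 42.5 and 31.25 (-0.45, -1.76 to 0.60), and cycling macrophage-like cells, at 39.2 and 46.9 (0.26, -0.22 to 0.70). The untreated mregDC-like cells held 10.7, below the 33.3 of the C1q macrophage-like cells, the next lowest of the 7 classes. After MSA-2 the mregDC-like cells held 0 (0 to 15.2). Ciita was at 1.32 and 1.20 UMIs per 1000 in the sum of myeloid-like cells (-0.13, -0.77 to 0.44), a sum of classes that went opposite ways. In macrophage-like cells it was 1.18 and 0.642 (-0.88, -1.89 to -0.02), and in cDC2-like cells 2.23 and 4.54 (1.03, 0.03 to 1.89). In C1q macrophage-like cells alone it was 1.17 and 0.715 (-0.71, -1.78 to 0.19). In Ly6c2 monocyte-like cells it was 1.02 and 2.09 (1.03, -4.29 to 3.55). The intervals of the C1q and Ly6c2 cells include 0.

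Among the macrophage-like and among all myeloid-like cells of a library, Ciita was highest in those with the most classical UMIs. Untreated macrophage-like cells with 0, 1 to 5, 6 to 20 and 21 or more thinned classical UMIs had Ciita at 0, 3.50, 8.05 and 38.5 CPM (35.0 to 42.3 in the highest bin). In the MSA-2 library the same bins had 0, 0, 6.34 and 17.2 CPM (6.3 to 37.5 in the highest), on 577, 392, 142 and 68 cells. The bin of 6 to 20 rests on 5 Ciita UMIs there (2.06 to 14.8 CPM) and the highest on 6, and their intervals overlap. Among all myeloid-like cells the highest bin had 43.7 CPM (40.5 to 47.0) in 2556 untreated cells and 43.8 CPM (26.4 to 68.4) in 89 MSA-2 cells. Those 2 bins differ in their cells: 18 cDC2-like cells at 164 CPM gave 12 of the 19 MSA-2 UMIs, while 203 of the 2556 untreated cells were cDC2-like, at 88.9 CPM. Within C1q macrophage-like cells the highest bin had 39.0 CPM (35.2 to 43.2) in 1575 untreated cells and 18.9 CPM (6.94 to 41.2) in 65 MSA-2 cells, and these intervals overlap. The H2-DM level was also higher in each higher bin, from 193 to 998 CPM in untreated and from 86.3 to 586 CPM in MSA-2 macrophage-like cells. The bins were made from the classical genes of the same cells, which share depth and free RNA, and no test was made.

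**Figure D3:**
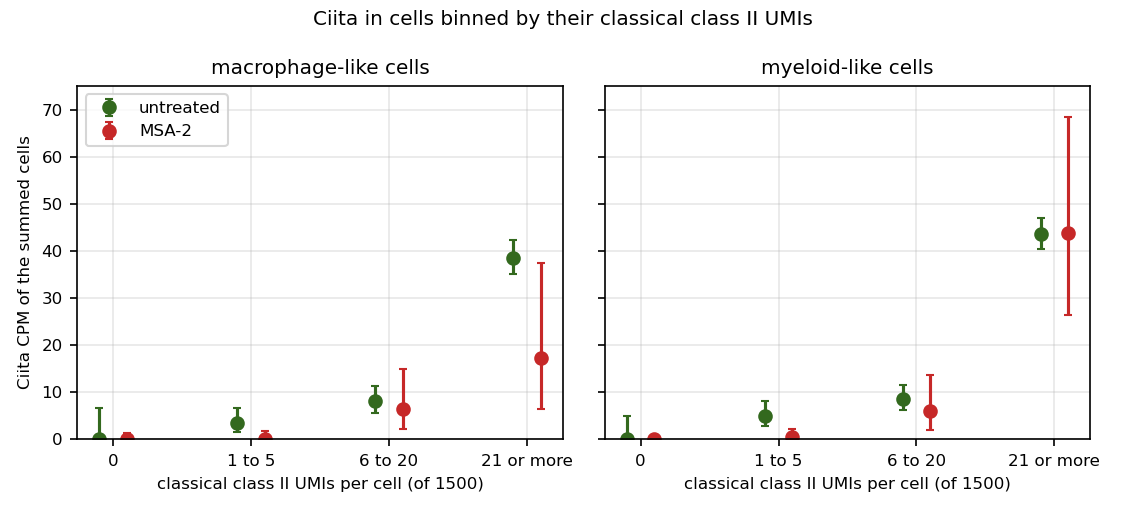
Ciita in CPM, with exact 95% Poisson intervals, in bins of classical class II UMIs per cell after thinning to 1500 UMIs, for macrophage-like and all myeloid-like cells of each library. Ciita is at 0 in cells with no classical UMI and highest in the bin of 21 or more, at 38.5 and 17.2 CPM in the untreated and MSA-2 macrophage-like cells. In the myeloid-like panel it is 43.7 and 43.8 CPM, where cDC2-like cells gave 12 of the 19 MSA-2 UMIs.

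H2-Oa and H2-Ob, the chains that restrain H2-DM, and H2-DMb2 were far higher in cDC2-like than in macrophage-like cells. Untreated, H2-Oa was at 225 and 5.03 CPM in these classes, H2-Ob at 58.7 and 5.19 CPM and H2-DMb2 at 230.7 and 11.7 CPM. The H2-DO sum in untreated cDC2-like cells was 284 CPM, with 276 UMIs of H2-Oa, and it went to 133 CPM after MSA-2 (-1.09). Per 1000 classical UMIs it was 7.12 and 5.30 in cDC2-like, 3.83 in untreated cDC1-like and 0.466 and 0.525 in macrophage-like cells. Untreated NK/T-like cells held 82 H2-Oa UMIs, 169% of the macrophage-like level per cell, while their classical genes stood at 2.15% and C1q at 1.44% of it. Of the untreated H2-Oa UMIs of the library, 57.4% lay in dendritic-like cells, and whether RNA of other cells reached the NK/T-like droplets was not tested.

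Over 21 sums of class and library of at least 50 cells, the log2(CPM + 1) of H2-DMa (Pearson's r = 0.945), H2-DMb1 (0.939) and Ciita (0.907) followed the classical sum more closely than that of H2-DMb2 (0.838), H2-Ob (0.743) and H2-Oa (0.703). These points share 2 libraries, their depth and their free RNA. The 5 other genes with the most similar pattern to the classical sum, among those with at least 50 CPM in 1 sum, were Fam174a (0.948), Cd83 (0.924), Rgs10 (0.903), Arpc2 (0.889) and Zmynd15 (0.873). Cd83, a marker of mature dendritic cells, is known to raise class II on the surface. For Ciita they were Gm20513 (0.938), Tmem50b (0.914), Dcstamp (0.902), Mgl2 (0.883) and Cst3 (0.866). Gm20513 is an antisense gene that overlaps H2-Eb1, so its reads may not be told apart from those of H2-Eb1 where strand was not used.

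The tumor-like cells held little classical class II RNA, and it went from 436 to 26.6 CPM (-4.03, -4.08 to -3.99). All 10 genes were over 2-fold lower, against 6.93% of 19821 genes and a median over all genes of 0.07. C1q, Lyz2 and Apoe, which macrophages express highly, stood at 6.42%, 6.52% and 6.18% of the macrophage-like level per cell in the untreated tumor-like cells, and the classical genes at 7.07%. After MSA-2, C1q stood at 3.43% and the classical genes at 4.35%. At these shares the classical RNA of tumor-like cells could not be told apart from that of macrophages. H2-DM stood above them, at 16.5% untreated and 27.4% after MSA-2, with H2-DMb1 at 19.5% and 32.7%. H2-DMa went from 1705 to 708 UMIs (-1.41, -1.53 to -1.28) and H2-DMb1 from 3303 to 827 (-2.14), so H2-DM per 1000 classical UMIs went from 78.8 to 358 (2.18, 2.10 to 2.26). Ciita had 101 and 8 UMIs, 0.682 and 0.049 CPM (-3.80, -5.05 to -2.76), and stood at 9.37% and 12.5% of the macrophage-like level per cell. Of the 6592 untreated cells, 35 with 50 or more classical UMIs held 7.51% of the classical UMIs, with 55.2 C1q UMIs per cell against 6.26 in the rest. Of the 7035 MSA-2 cells, 5 such cells held 18.9%, with 28.2 C1q UMIs per cell against 1.93 in the rest.

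In endothelial-like cells, 63 untreated and 84 after MSA-2, the classical sum went from 896 to 68 UMIs, 1435 to 68.2 CPM (-4.40, -4.77 to -4.04). The 6 genes with at least 10 UMIs were all over 2-fold lower, against 8.79% of 9626 genes. H2-DM went from 78 to 11 UMIs (-3.50, -4.56 to -2.58), and Ciita had 3 UMIs and 1. In the untreated library the classical genes stood at 10.3% of the macrophage-like level per cell, above C1q at 2.82%, Lyz2 at 2.34% and Apoe at 2.95%, and H2-DM at 26.4%. After MSA-2 the classical genes stood at 5.71%, C1q at 1.32%, Lyz2 at 2.80% and H2-DM at 16.3%. Of the 63 cells, 2 with 50 or more classical UMIs held 23.9% of them. Fibroblast-like cells went from 711 to 55.9 CPM in the classical sum (-3.67), and there the classical genes stood at 6.23% and C1q at 4.72% of the untreated macrophage-like level, with H2-DM at 11.4%. After MSA-2 these were 6.06%, 3.11% and 16.9%. Of the 201 untreated fibroblast-like cells, 4 with 50 or more classical UMIs held 42.1% of them, and the rest had 5.10 classical and 3.43 C1q UMIs per cell.

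**Figure D4:**
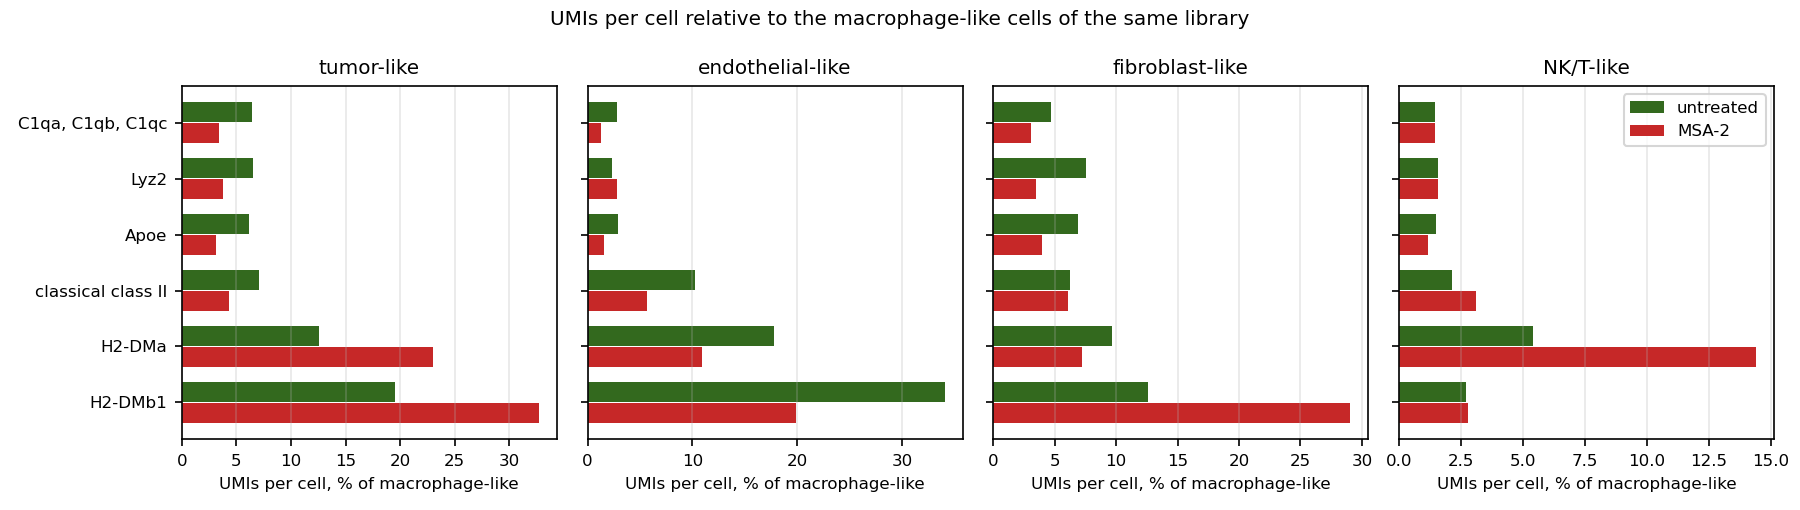
UMIs per cell as a percent of the macrophage-like cells of the same library, for macrophage genes, the classical class II sum, H2-DMa and H2-DMb1 in tumor-, endothelial-, fibroblast- and NK/T-like cells. In the tumor-like cells H2-DMb1 stands at 19.5% untreated and 32.7% after MSA-2, and C1q at 6.42% and 3.43%. The horizontal axes differ between panels, and the bars carry no error.

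**Figure D5:**
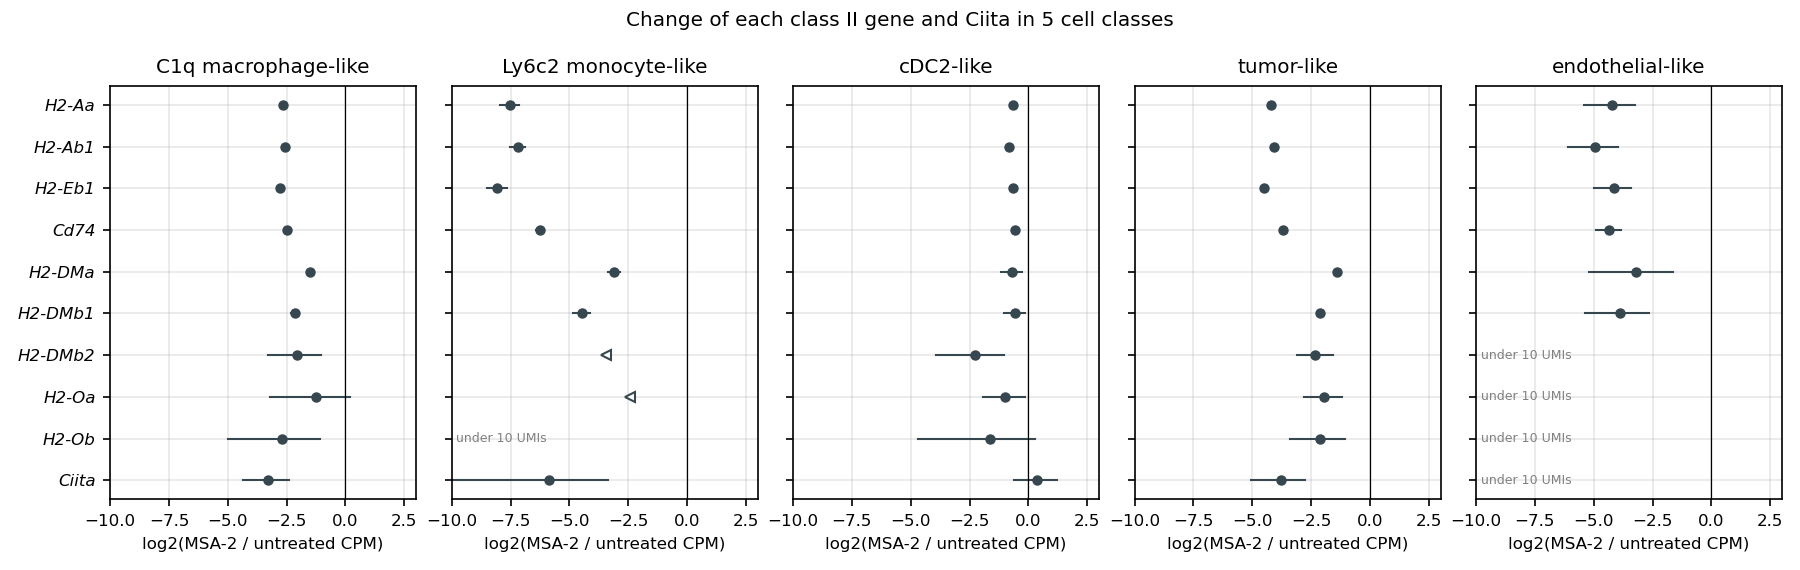
Log2 ratio of CPM, MSA-2 over untreated, for each of the 10 genes in C1q macrophage-, Ly6c2 monocyte-, cDC2-, tumor- and endothelial-like cells. Points are ratios of summed UMIs, bars their exact 95% counting intervals, open triangles the ratio with the MSA-2 count of 0 set to 3, and genes under 10 UMIs are left blank. The classical genes lie between -8.05 and -6.25 in Ly6c2 monocyte-like cells and between -0.83 and -0.58 in cDC2-like cells.

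The genes that act with Ciita at the promoter were within 2-fold in the same cells. The 7 promoter factors (Rfx5, Rfxap, Rfxank, Nfya, Nfyb, Nfyc, Creb1) had 0 members over 2-fold lower or higher in the myeloid-like cells, with a median of -0.44 beside -0.17 over all genes. Among all 15217 genes there, 9.84% were over 2-fold lower and 11.0% over 2-fold higher. Of 8 genes of the interferon-gamma relay and its inducers, 2 were over 2-fold lower: Ifngr2, a receptor chain, from 122 to 54.1 CPM (-1.17), and the transcription factor Irf8 from 341 to 155 CPM (-1.14). Irf1 (0.45) and Jak2 (0.19) were within 2-fold. Of 5 antigen processing genes only Ctsl was over 2-fold higher (1.31), with Ctss at -0.50 and Ifi30 at -0.76. Of 6 genes of surface turnover and costimulation, Cd83 went from 486 to 109 CPM (-2.16), while March1 (0.58), which removes class II from the surface, and Cd86 (0.28), Cd80 (0.47) and Cd40 (0.74) were within 2-fold.

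In the Ly6c2 monocyte-like cells, which had the lowest classical ratio of the 7 myeloid classes, 1 of the 7 promoter factors was over 2-fold lower (Rfxap, -1.18), and 3 of the 8 inducers, Ifngr1 (-1.36), Ifngr2 (-1.78) and Irf8 (-1.26). Of the 5 antigen processing genes 2 were over 2-fold lower, the proteases Ctss (-1.12) and Lgmn (-1.23), with a median of -0.89 over the 5. Over all genes in these cells, 13.9% were over 2-fold lower and 13.6% over 2-fold higher. Of the 6 surface genes, Cd83 (-3.83) and March8 (-1.15) were over 2-fold lower and Cd80 (1.63) and Cd86 (1.20) over 2-fold higher. In the C1q macrophage-like cells 0 of the 7 and 1 of the 8 (Ifngr2, -1.05) were over 2-fold lower, against 9.19% of all genes there. In the tumor-like cells 0 of the 7 and 2 of the 8 were over 2-fold lower, against 6.93% of all genes (Irf8, -1.90, and Spi1, -1.07, both genes of blood cells).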

How the data were processed

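The authors deposited, for each library, a matrix of raw UMI counts per gene and cell barcode, made from 10x 3′ reads with Cell Ranger (7.0.1 in the file header, 7.0.0 in the submitters' processing notes, which also name Seurat 4.3.0) on mm10. No other normalization was applied. The 10 genes and the pathway lists were chosen with earlier results of these data known.

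Barcodes under 500 genes or over 20% mitochondrial UMIs were left out, and doublets called by Scrublet in scanpy 1.11.5 in each library (705, 5.02%, and 570, 4.08%) were removed. Libraries were integrated by reciprocal PCA and clustered in Seurat 5.3.0 on 2000 variable genes, without class II or H2 genes and interferon-induced genes (43 variable genes dropped), at resolution 1. Clusters were named from marker lists. Among names with a mean marker score close to the highest, the one with the most markers among the cluster's leading genes was taken. A minimum score of 0.5 was set after the clusters were seen, for names other than the tumor-like class and the macrophage-, monocyte- and dendritic-like classes. In each class, UMIs were summed and divided by the class total and scaled (CPM). Ratios of CPM carry exact conditional binomial 95% intervals, levels exact Poisson ones and shares exact binomial ones. A count of 0 was set to 3 counts for a bound. No test was made, as each condition is 1 library, and intervals cover counting error only. For cells at equal depth, each was thinned to 1500 UMIs. The named genes are the 10 genes, 4 pathway lists, and the 5 genes most correlated with the classical sum and with Ciita. On simulated counts for 15217 genes, 95.8% of intervals held the true ratio. Python 3.11.15, numpy 2.4.6, scipy 1.17.1, pandas 2.3.3 and edgeR 4.0.16 (for TMM factors) were used. Alternatives were other cell filters, doublets kept, class II genes kept in clustering, resolutions 0.5 and 2, no integration, equal weight per cell, TMM factors, and 2 chosen after seeing the data. A few genes and 1 cell class are not reported here.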

Additional observations from a re-analysis of the deposited data

Results flagged for a closer look

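Ciita in cDC2-like cells had a log2 ratio of 0.36 (-0.63 to 1.22), on 109 and 12 UMIs, while C1q macrophage-like (-3.31) and Ly6c2 monocyte-like cells (-5.86) were lower. In pDC-like cells Cd74 had a ratio of 0.19 (-0.64 to 0.91) and the classical sum one of 0.17 (-0.40 to 0.68), intervals that include 0, where the other classes were lower, on 17 untreated cells and 1 MSA-2 cell. The difference between these classes and the others was not tested.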

How the results depend on the processing

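Of 92 alternative values for 9 results, 60 moved by no more than the counting interval and 32 by more, and none changed direction. The ratios that moved were the following, for the classical sum unless another is named. With a stricter cell filter they were -3.13 in macrophage-like, -5.83 in Ly6c2 monocyte-like and -3.98 in tumor-like cells, and with no filter -2.89 in macrophage-like and -5.56 in Ly6c2 monocyte-like cells. With doublets kept they were -3.23 (H2-DM sum -2.46) in myeloid-like, -3.09 in macrophage-like, -6.41 in Ly6c2 monocyte-like, -0.49 in cDC2-like and -4.18 in tumor-like cells. With class II genes kept in clustering they were -3.05 in macrophage-like and -6.54 in Ly6c2 monocyte-like cells. At resolution 0.5 they were -2.90 and -5.60 in these classes, and at resolution 2 -3.16 and -6.43, with -3.50 (H2-DM sum -2.73) in myeloid-like cells. With no integration they were -3.41 in myeloid-like, -2.81 in macrophage-like, -5.62 in Ly6c2 monocyte-like and -0.47 in cDC2-like cells. With equal weight per cell they were -3.36 in myeloid-like and -0.75 in cDC2-like cells. With TMM factors they were -3.25 (H2-DM sum -2.48) in myeloid-like, -2.94 in macrophage-like, -6.72 in Ly6c2 monocyte-like, -0.84 in cDC2-like and -4.10 in tumor-like cells. Without tumor-like cells of 50 or more classical UMIs, chosen after seeing the data, the ratio was -4.23. The cause of these shifts was not tested. With at least 50 UMIs for a gene, the share of genes over 2-fold lower was 4.94% in C1q macrophage-like and 4.63% in endothelial-like cells. Leaving out cells with any of the 53 barcodes found in both libraries before filters, also chosen after seeing the data, moved no ratio past its counting interval. No paired analysis was possible because each condition is 1 library. Ciita, H2-Oa and H2-Ob are limited by depth, with few UMIs in most MSA-2 classes.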

Other observations

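In the untreated neutrophil-like and pericyte-like cells, most class II UMIs lay in a few cells, although 29.8% and 7.41% of the cells had no classical UMI. Of 47 untreated neutrophil-like cells, 4 with 50 or more classical UMIs held 91.7% of the class's classical UMIs, and of 27 pericyte-like cells, 4 held 92.3%. The neutrophil-like classical sum was 11805 CPM in those 47 untreated cells and 70.7 CPM in 2645 MSA-2 cells, so no difference is read from it. In all cells, the UMIs of H2-DM lay 77.6% in myeloid-like and 19.3% in tumor-like cells untreated, and 42.4% and 51.4% after MSA-2.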
